A study of Mus musculus with 15 samples.

Results

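The genes described are 10 genes of the circadian clock: Clock from its activating arm, Per1, Per2, Per3, Cry1 and Cry2 from its repressing arm, the REV-ERB receptor genes Nr1d1 and Nr1d2, and the output factor genes Dbp and Tef. They were chosen by gene symbol. All 10 are among the 20910 genes of the count table of cultured mouse retinal pigment epithelium (mRPE) cells and among the 25038 genes of the RPE/choroid table, and all 10 passed the filter on low counts in every comparison. The name clock output genes covers only some of them, since Clock, the Period genes and the Cryptochrome genes are also parts of the loop itself.

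PolyA RNA was sequenced in bulk to ask what loss of Prom1, which encodes a membrane protein of the RPE and of photoreceptors, does to mouse RPE in culture and in the eye. The mRPE cells came from pooled C57/BL6J mice aged 8 to 12 weeks and were immortalized with papillomavirus genes. The medium of all of them held hydrocortisone, triiodothyronine, taurine and serum. Wild-type (WT) mRPE cells (4 libraries) were the controls. The Prom1-KO cells expressed Cas9, received a guide RNA to exon 5 of Prom1 and came as the clones KO22 (3 libraries) and KO26 (2 libraries). Each KO group therefore stands for 1 clone. The study's methods also describe Cas9 cells given scrambled guide RNA, without tying them to the WT libraries. The RPE/choroid tissue comprised 3 WT libraries and 3 libraries labelled Prom1-KO, from Prom1fl/fl mice crossed to mice with RPE65-Cre and given Tamoxifen by gavage, so that Cre acts in RPE cells and the other cells of the tissue keep Prom1. The study's methods put its mice at an age of 6 to 8 weeks, without saying whether this holds for the tissue libraries. The genotype of the WT mice beyond that label and the hour of harvest of cells and tissue are not given in the sources used here, and each library is a single time point.

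In the clock of nearly every mammalian cell, CLOCK and BMAL1 bind E-boxes and switch on the Period, Cryptochrome, Nr1d1, Nr1d2, Dbp and Tef genes, and the PER and CRY proteins then shut CLOCK and BMAL1 off, so that the cycle takes about a day. REV-ERB proteins made from Nr1d1 and Nr1d2 repress Bmal1 through elements they share with the ROR receptors, while DBP and TEF carry the rhythm to other genes through D-boxes. In the RPE, a daily clock is known for timing the uptake of shed photoreceptor outer segments, and in culture the clocks of separate cells drift apart unless a signal such as serum or a glucocorticoid sets them together.

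The values are given in CPM, that is, as counts brought to a common library total after TMM scaling. Total counts of the mRPE libraries were 27537863, 13469818, 10187978 and 12614921 in WT replicates 1 to 4, 11863633, 20760399 and 13096157 in KO22 replicates 1 to 3, and 24175274 and 8076188 in KO26 replicates 1 and 2. Library names begin with 8995 for replicate 1 of each mRPE group and with 9262 for the other 6 mRPE libraries, and these prefixes are called library batches here, although the labels do not say what they stand for. Batch 8995 therefore holds 1 library of each group. The study describes its mRPE libraries as clustering by sequencing batch, without tying these batches to the prefixes. The labels do not say whether replicate libraries came from separate cultures or animals, so the p-values measure the spread between libraries. Prom1 itself was not analysed here in the mRPE cells.

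Of 8 defining RPE markers, 2 were measured in the mRPE cells, Best1 and Mitf, and the other 6 were not analysed here. Their summed level was 6.20, 9.32, 10.5 and 10.3 CPM in WT replicates 1 to 4, 37.5, 16.6 and 13.7 CPM in KO22 replicates 1 to 3 and 3.39 and 6.48 CPM in KO26 replicates 1 and 2, with Best1 or Mitf the more abundant. KO22 replicate 1 was the highest of the 9 libraries. The summed level of the 6 proliferation markers, with Top2a or Mki67 the most abundant, was 874, 736, 726 and 701 CPM in WT replicates 1 to 4, 1856, 3019 and 2862 CPM in KO22 replicates 1 to 3 and 1776 and 1564 CPM in KO26 replicates 1 and 2. Every KO library lay above every WT library for that sum, and KO22 replicates 2 and 3 were highest. At an edgeR adjusted p under 0.05, 6 of 6 rose in KO22 against WT and 5 of 6 in KO26 against WT, beside 26.9% and 2.36% of all genes. Markers of other cell types also differed in KO22 against WT. Past both limits by edgeR, 3 of 4 fibroblast markers (Col1a1, Col1a2 and Pdgfra), 3 of 4 markers of smooth muscle and pericytes (Acta2, Rgs5 and Tagln) and 2 of 4 endothelial markers (Kdr and Tek) fell, beside 13.8% of all genes, and the endothelial marker Plvap rose. The 4 fibroblast markers measured summed to 13920, 11150, 12950 and 10930 CPM in WT replicates 1 to 4. Their sum was 5864, 4985 and 4103 CPM in KO22 and 15100 and 18040 CPM in KO26. All of these sums lay far above those of Best1 and Mitf. Kdr was at 235, 160.2, 151 and 162 CPM in WT and 0.346, 3.72 and 2.56 CPM in KO22, and Acta2 at 1654, 641, 589 and 642 CPM and 233, 153 and 147 CPM. In KO26, Kdr was at 72.3 and 55.3 CPM and Acta2 at 1771 and 866 CPM, and of these 3 lists Pdgfra fell (log2 fold change -0.78, edgeR adjusted p 0.0228) and Rgs5 rose past both limits (log2 fold change 2.55, edgeR adjusted p 0.0116) against WT. Between the clones, Col1a1, Col1a2, Acta2, Rgs5, Tagln and Kdr were lower in KO22 past both limits, beside 10.7% of all genes, and Mitf was higher past both limits (log2 fold change 2.97, edgeR adjusted p 0.000638). The fibroblast marker Dcn was higher at the adjusted p alone (log2 fold change 0.97, edgeR adjusted p 0.0488), and Pdgfra lower (log2 fold change -0.72, edgeR adjusted p 0.00426).

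Levels of different genes were compared per kilobase of annotated exons, joined over all annotated transcripts of a gene. These lengths were 17251 bases for Clock and 3242 bases for Nr1d1. The order and the ratios per kilobase depend on them, and which transcripts were made was not tested. In WT mRPE cells the order of mean levels was Clock (8.64 CPM per kilobase), Nr1d1 (7.97), Tef (6.44), Per2 (6.19), Per1 (4.60), Nr1d2 (3.71), Cry1 (2.94), Cry2 (2.17), Dbp (1.80) and Per3 (1.50), with Bmal1, the partner of Clock, at 2.32. Of neighbours in this order that includes Bmal1, only Per1 and Nr1d2 had ranges over the 4 libraries that did not overlap. Clock in KO22 stood apart from the next gene, at a mean of 14.4 CPM per kilobase against 5.15 for Nr1d1, and the ranges did not overlap. In KO26, Nr1d1 led with 13.8 CPM per kilobase, before Clock with 7.64, again with ranges that did not overlap. Per3 and Dbp had the lowest means of the 10 in WT, KO22 and KO26 cells, at 2.02 and 2.48 CPM per kilobase in KO26. In WT and KO26 the ranges of both overlapped that of Cry2, and in KO22 neither range did.

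The first comparison asks how clone KO22 differs from WT mRPE cells, with library batch as a term of the fit. Of the 10 clock genes, 2 rose and 4 fell at an edgeR adjusted p under 0.05, beside 26.9% and 26.1% of the 20455 genes tested. Past both limits, that is, with a log2 fold change beyond 1.2 as well, 0 rose and 1 fell, beside 11.4% and 13.8% of all genes. DESeq2 also put 0 higher and 1 lower past both limits. At an unadjusted edgeR p under 0.05 the counts were 2 higher and 4 lower, beside 6001 and 5937 of all 20455 genes. Counts of this size are near the shares over all genes and are not a result about the 10 genes as a group. Their median log2 fold change was -0.38, beside -0.032 over all genes tested. In bulk RNA, fewer cells that express a gene and less of its RNA per cell cannot be told apart.

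Clock (ENSMUSG00000029238, chr5:76342860-76452846, minus strand) encodes the DNA-binding activator that pairs with BMAL1. Its level was 148, 144, 152 and 153 CPM in WT replicates 1 to 4 and 277, 242 and 227 CPM in KO22 replicates 1 to 3. All 3 KO22 libraries lay far above all 4 WT libraries, with the highest in replicate 1. Clock rose (log2 fold change 0.72, SE 0.10, edgeR adjusted p 0.000353) and passed under all 14 alternatives, with adjusted p from 6.93e-08 to 0.00543. Bmal1, which encodes its partner, was at 29.0, 27.3, 25.5 and 25.6 CPM in WT and 30.5, 32.5 and 29.2 CPM in KO22. The KO22 libraries were again above each WT library, but only narrowly, and Bmal1 did not pass (log2 fold change 0.19, SE 0.11, edgeR adjusted p 0.186); without KO22 replicate 1 its log2 fold change was 0.25 and passed.

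Among the Period genes, whose proteins form the repressing complex with the Cryptochromes, Per2 (ENSMUSG00000055866, chr1:91343700-91387069, minus strand) was at 29.4, 44.9, 42.2 and 46.1 CPM in WT and 29.2, 24.1 and 17.0 CPM in KO22. The KO22 libraries lay below all WT libraries, although KO22 replicate 1 was only just under WT replicate 1 of the same batch. Per2 fell (log2 fold change -0.78, SE 0.22, edgeR adjusted p 0.0143) and did not pass without KO22 replicate 2 (log2 fold change -0.83) or without KO22 replicate 3 (-0.57), nor in 1 fit over all 9 mRPE libraries (-0.71, edgeR adjusted p 0.0585). Per3 (ENSMUSG00000028957, chr4:151081373-151129140, minus strand), a Period gene whose loss leaves the rhythm largely intact, was at 12.2, 16.0, 17.4 and 17.5 CPM in WT and 9.68, 8.59 and 6.36 CPM in KO22. All 3 KO22 libraries were below all 4 WT libraries. Per3 fell (log2 fold change -0.92, SE 0.20, edgeR adjusted p 0.00418) and passed under all 14 alternatives, with adjusted p from 6.69e-07 to 0.0211. Per1 (ENSMUSG00000020893, chr11:68986035-69002300, plus strand), which also responds to glucocorticoids and cAMP, was at 34.3, 34.1, 34.4 and 38.0 CPM in WT and 51.4, 31.8 and 28.9 CPM in KO22. KO22 replicate 1 was above every WT library and replicates 2 and 3 below every one, and Per1 did not pass (log2 fold change 0.017, SE 0.17, edgeR adjusted p 0.941). Without WT replicate 1, which leaves no WT library in batch 8995, its log2 fold change was -0.24 and passed, and without KO22 replicate 1 it was -0.21 and did not.

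The Cryptochrome genes encode the stronger repressors of CLOCK and BMAL1. Cry1 (ENSMUSG00000020038, chr10:84967560-85021252, minus strand) was at 16.1, 13.8, 16.7 and 12.0 CPM in WT and 21.6, 22.0 and 18.5 CPM in KO22. Each KO22 library was above each WT library. Cry1 rose (log2 fold change 0.49, SE 0.15, edgeR adjusted p 0.0217), yet it did not pass without WT replicate 2 (log2 fold change 0.46), WT replicate 4 (0.41), KO22 replicate 2 (0.36) or KO22 replicate 3 (0.50), nor in 1 fit over all 9 mRPE libraries (0.48, edgeR adjusted p 0.0802). Cry2 (ENSMUSG00000068742, chr2:92233894-92264474, minus strand) was at 13.8, 22.3, 16.6 and 22.0 CPM in WT and 21.5, 17.0 and 15.2 CPM in KO22, and the groups overlapped. Its difference did not pass (log2 fold change -0.045, SE 0.21, edgeR adjusted p 0.871). It turned positive without WT replicate 2 (log2 fold change 0.028), WT replicate 4 (0.025) or KO22 replicate 3 (0.065), and it passed as lower without WT replicate 1 (-0.35) or KO22 replicate 1 (-0.32).

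Nr1d1 (ENSMUSG00000020889, chr11:98658752-98666188, minus strand) encodes REV-ERB alpha, a haem-binding repressor of Bmal1. Its level was 16.5, 24.1, 32.2 and 30.7 CPM in WT and 27.0, 11.3 and 11.9 CPM in KO22. KO22 replicates 2 and 3 were below every WT library and replicate 1 fell inside the WT range. The pooled difference did not pass (log2 fold change -0.71, SE 0.36, edgeR adjusted p 0.12), but it passed without WT replicate 1 (log2 fold change -1.33) and without KO22 replicate 1 (-1.31). Nr1d2 (ENSMUSG00000021775, chr14:4230545-4266624, plus strand), for the related REV-ERB beta, was at 28.5, 34.7, 38.5 and 32.5 CPM in WT and 65.8, 29.0 and 28.1 CPM in KO22. Replicate 1 of KO22 was above all other libraries in both groups and the other KO22 libraries were at or just under the low end of the WT range. Nr1d2 did not pass (log2 fold change 0.15, SE 0.26, edgeR adjusted p 0.656), and it passed in the opposite direction without WT replicate 1 (log2 fold change -0.31) or KO22 replicate 1 (-0.29).

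Dbp (ENSMUSG00000059824, chr7:45354512-45359627, plus strand) encodes a PAR-bZIP activator of D-box genes and is transcribed directly by CLOCK and BMAL1. It was at 5.53, 5.96, 6.28 and 7.25 CPM in WT and 3.89, 2.08 and 2.02 CPM in KO22. All KO22 libraries were below all WT libraries, and replicates 2 and 3 were lowest. Dbp fell (log2 fold change -1.30, SE 0.27, edgeR adjusted p 0.00302), passed under all 14 alternatives with adjusted p from 1.26e-06 to 0.0232, and was the 1 gene past both limits. Without KO22 replicate 2 its log2 fold change was -1.18 and the count past both limits was 0, while without WT replicate 1 or without KO22 replicate 1 that count was 3. Without those libraries, 31.4% and 31.1% of all genes were lower at the adjusted p, against 26.1% with all libraries. Tef (ENSMUSG00000022389, chr15:81686622-81711064, plus strand), for the second PAR-bZIP factor of the list, was at 45.6, 52.0, 61.7 and 53.6 CPM in WT and 47.5, 22.0 and 19.3 CPM in KO22. Replicates 2 and 3 of KO22 were well below all WT libraries, but replicate 1 lay within the WT range, so the groups overlapped. Tef fell (log2 fold change -0.98, SE 0.26, edgeR adjusted p 0.0113), and it did not pass without KO22 replicate 2 (log2 fold change -0.87) or replicate 3 (-0.79).

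**Figure D1:**
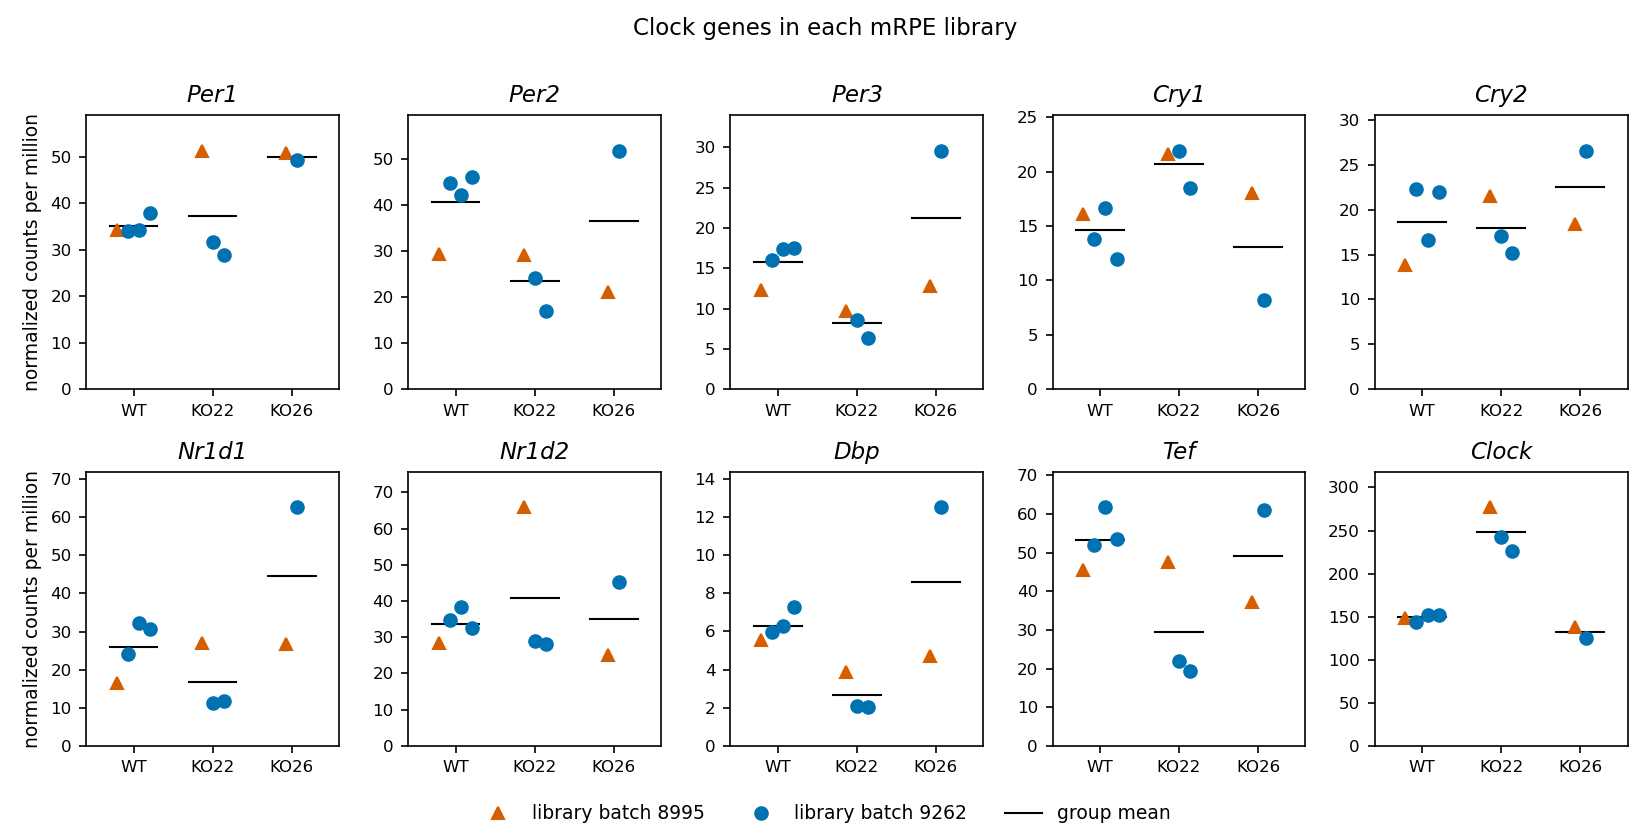
Each panel shows 1 gene, with CPM after TMM scaling on the vertical axis from 0, a point per mRPE library in WT, KO22 and KO26 (color and shape give the library batch) and a line at the group mean. Clock in KO22 lies between 227 and 277 CPM, above all WT libraries, and for Nr1d1 the KO22 library of batch 8995 lies at 27.0 CPM, apart from 11.3 and 11.9 CPM in batch 9262.

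The split between KO22 replicate 1 and the other KO22 libraries follows the library batch. Within batch 8995, with 1 KO22 library against 1 WT library, 7 of the 10 genes were higher and 3 lower in KO22, beside 48.2% and 51.8% of all genes. In batch 9262, with 2 KO22 against 3 WT libraries, 2 genes lay above every WT library, 7 below every WT library and 1 overlapped, beside 37.5% above and 36.9% below over all genes. The median difference of mean log2 CPM over the 10 genes was 0.50 in batch 8995 and -0.73 in batch 9262. Cry1 and Clock were higher in both batches, while Per2, Per3 and Dbp were lower in both, Per2 by a margin near 0 in batch 8995.

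A fit with the interaction of clone and batch tested whether the KO22 difference itself changed between batches, on 3 residual degrees of freedom. All 3 come from replicate libraries within batch 9262, so the p-values take batch 8995, with 1 library of each group, to vary as batch 9262 does, which could not be tested. Negative values mean that KO22 stood lower against WT in batch 9262 than in batch 8995. Of the 10 genes, 0 passed as higher and 8 as lower at an edgeR adjusted p under 0.05, beside 17.2% and 9.34% of the 20455 genes tested. Past both limits there were 0 higher and 3 lower, beside 5.88% and 5.19% of all genes. The count higher was also 0 at an unadjusted edgeR p under 0.05, beside 4800 of all genes, and by DESeq2, beside 10.2%. DESeq2 put 6 clock genes lower at an adjusted p under 0.05, beside 5.96% of all genes, and 3 lower past both limits. The median over the 10 genes was -1.04, beside 0.14 over all genes tested. Without KO22 replicate 2, which leaves 1 KO22 library in each batch, the count past both limits was 5, while 11.2% of all genes were lower at the adjusted p. Leaving out either library of batch 8995 gives no value, so each of these differences rests on 1 KO22 and 1 WT library in that batch.

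Nr1d1 had the largest interaction of the 10. KO22 minus WT, as a difference of mean log2 CPM, was 0.71 in batch 8995 and -1.31 in batch 9262. The KO22 library was the higher of the pair in the first batch, and both KO22 libraries were below all 3 WT libraries in the second. The difference between batches passed both limits (log2 fold change -2.04, SE 0.24, edgeR adjusted p 3.07e-06). Nr1d2 went from 1.21 to -0.30, also a change of side with no overlap in batch 9262, and passed both limits (log2 fold change -1.51, SE 0.18, edgeR adjusted p 3.70e-06). Tef went from 0.060, nearly level, to -1.43, with both KO22 libraries below all WT libraries of batch 9262, and passed both limits (log2 fold change -1.49, SE 0.19, edgeR adjusted p 7.01e-06). These 3 passed the adjusted p under all 9 alternatives, with adjusted p from 2.96e-09 to 0.000318 for Nr1d1, 2.14e-08 to 0.000142 for Nr1d2 and 1.94e-08 to 0.00034 for Tef.

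Per1 and Cry2 changed side as well. Per1 went from 0.59 in batch 8995 to -0.23 in batch 9262, where both KO22 libraries were lower than the 3 WT libraries (log2 fold change -0.82, SE 0.18, edgeR adjusted p 0.00174). Cry2 went from 0.64 to -0.32, with overlapping groups in batch 9262 (log2 fold change -0.98, SE 0.25, edgeR adjusted p 0.0056). Per2 was level in batch 8995 (-0.010) and lower in batch 9262 (-1.13), without overlap there (log2 fold change -1.09, SE 0.22, edgeR adjusted p 0.000905). Like the 3 genes past both limits, Per1, Per2 and Cry2 passed under all 9 alternatives.

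Per3 and Dbp were lower in KO22 in both batches and more so in batch 9262. Per3 went from -0.34 to -1.20 (log2 fold change -0.82, SE 0.28, edgeR adjusted p 0.0331), and did not pass without WT replicate 3 (log2 difference -0.81), WT replicate 4 (-0.81) or KO22 replicate 3 (-0.72), nor by DESeq2. Dbp went from -0.51 to -1.66 (log2 fold change -1.16, SE 0.40, edgeR adjusted p 0.0352), and did not pass without WT replicate 4 (-1.08) or by DESeq2. Clock (0.90 and 0.65) and Cry1 (0.42 and 0.53) were higher in KO22 in both batches, and neither interaction passed, with log2 values of -0.26 for Clock (edgeR adjusted p 0.287) and 0.11 for Cry1 (edgeR adjusted p 0.787). The Cry1 value turned negative without WT replicate 4 (-0.0098) or KO22 replicate 2 (-0.093). Marker levels moved along the same split: the summed level of Best1 and Mitf was 37.5 CPM in KO22 replicate 1 and 16.6 and 13.7 CPM in replicates 2 and 3, and the summed proliferation markers went the other way, from 1856 to 3019 and 2862 CPM. By the interaction test, Best1 and Mitf, 2 of 2 RPE markers tested, were lower past both limits, beside 5.19% of all genes. Of 6 proliferation markers, 6 were higher at the edgeR adjusted p, beside 17.2% of all genes. Past both limits 3 of them were higher, beside 5.88%. For other cell types, 1 of 4 fibroblast markers was lower and 1 of 4 endothelial markers higher past both limits, beside 5.19% and 5.88% of all genes. Of 4 markers of smooth muscle and pericytes, 1 was higher at the edgeR adjusted p alone, beside 17.2% of all genes. What part these markers had in the clock differences was not tested.

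**Figure D2:**
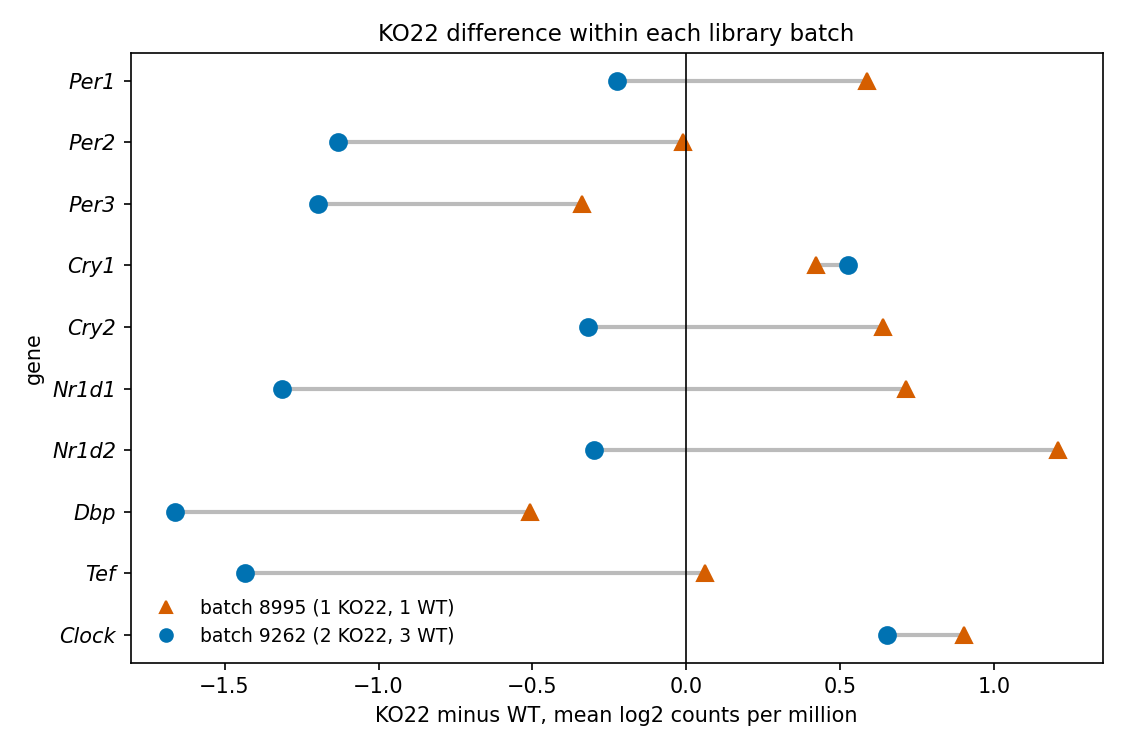
The horizontal axis gives KO22 minus WT as a difference of mean log2 CPM, with a triangle per gene for library batch 8995 (1 KO22 and 1 WT library) and a circle for batch 9262 (2 KO22 and 3 WT libraries). Nr1d1 moves from 0.71 to -1.31 and Tef from 0.060 to -1.43, while Clock and Cry1 stay above 0 in both batches.

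The batch term itself, over all 9 mRPE libraries, compares 9262 with 8995 across the groups. Of the 10 genes, 0 rose and 0 fell at an edgeR adjusted p under 0.05, beside 4.51% and 4.31% of the 20737 genes tested. The counts were also 0 and 0 by DESeq2 and at an unadjusted edgeR p, where 2904 of all genes were higher and 2636 lower. Past both limits the counts of clock genes were again 0 and 0, beside 1.91% and 0.661% of all genes. Their median log2 difference was 0.025, beside 0.031 over all genes. KO22 replicate 1 weighed on these values. Without it, 7 of the clock genes passed as higher in batch 9262 and 0 as lower, beside 15.3% and 18.5% of all genes. The log2 differences of these 7 were 0.86 for Per2, 0.76 for Per3, 0.55 for Cry2, 0.99 for Nr1d1, 0.52 for Nr1d2, 0.69 for Dbp and 0.45 for Tef.

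The second clone, KO26, was compared with the same WT libraries, so its values are not independent of those of KO22. The study's authors set both KO26 libraries aside as outliers, and both are used here. Of the 10 clock genes, 0 rose and 0 fell at an edgeR adjusted p under 0.05, beside 2.36% and 1.13% of the 20737 genes tested, and DESeq2 also gave 0. Past both limits the counts were 0 and 0, beside 1.21% and 0.719%. At an unadjusted edgeR p under 0.05 there was 1, Per1, which was higher, beside 2292 higher of all 20737 genes. This fit also held the KO22 libraries. With only the WT and KO26 libraries, the form used for KO22, 2 clock genes passed as higher, beside 8.76% of all genes: Per1 (log2 fold change 0.49, edgeR adjusted p 0.00867) and Nr1d1 (0.93, edgeR adjusted p 0.000583). Over all 9 libraries the median log2 fold change was 0.17, beside 0.026 over all genes.

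Per1 was at 50.9 and 49.3 CPM in KO26 replicates 1 and 2. Both lay above every WT library. The difference did not pass (log2 fold change 0.44, SE 0.19, edgeR adjusted p 0.231), but it passed without KO22 replicate 1, which enters the fit through the shared spread and batch term (log2 fold change 0.52). Over its 15 alternatives the adjusted p ran from 0.00433 to 0.547. Clock was at 138 and 126 CPM. Both KO26 libraries were below every WT library, opposite to KO22, and the difference did not pass (log2 fold change -0.21, SE 0.13, edgeR adjusted p 0.385).

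For the other genes the KO26 libraries stood apart from each other. Nr1d1 was at 26.6 and 62.6 CPM, with replicate 1 inside the WT range and replicate 2 above it by a wide margin (log2 fold change 0.81, SE 0.42, edgeR adjusted p 0.31). Its log2 fold change was -0.15 without KO26 replicate 2, and 0.95, which passed, without KO22 replicate 1. Nr1d2 was at 25.0 and 45.3 CPM and Dbp at 4.69 and 12.5 CPM. For both, replicate 1 was below every WT library and replicate 2 above every one. Per2 was at 21.1 and 51.9 CPM and Per3 at 12.8 and 29.6 CPM. Replicate 2 was the higher of the pair and above all WT libraries for both genes. Cry1 was at 18.0 and 8.21 CPM, Cry2 at 18.4 and 26.6 CPM and Tef at 37.2 and 61.0 CPM. For Cry1 replicate 2 was the lower, below every WT library, and for Cry2 and Tef it was the higher. Replicate 2 had the smallest total count of the 9 mRPE libraries, and its part in these values was not tested. Without KO26 replicate 2 the fold changes of Per3 (-0.23), Nr1d2 (-0.80) and Dbp (-0.61) turned negative, that of Nr1d2 also without WT replicate 1 (-0.15), and that of Cry1 turned positive (0.19). Per2 (0.35) and Tef (0.29) turned positive without KO26 replicate 1. In batch 9262, against 3 WT libraries, the 1 KO26 library was above every WT library for 7 of the 10 genes and below every one for 2, beside 33.9% and 34.7% of all genes. Against the 1 WT library of batch 8995, KO26 was higher for 5 and lower for 5, beside 53.1% and 46.6%.

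When the clones were tested against each other, KO22 had 2 clock genes above KO26 and 3 below it at an edgeR adjusted p under 0.05, beside 16.3% and 18.1% of the 20737 genes tested. Past both limits 0 were higher and 3 lower, beside 7.56% and 10.7%. DESeq2 also gave 0 and 3 past both limits. At an unadjusted edgeR p under 0.05 the counts were 2 and 3, beside 4401 and 4755 of all 20737 genes. The median over the clock genes was -0.50, beside 0.0017 over all genes. Clock was higher in all 3 KO22 libraries than in both KO26 libraries (log2 fold change 0.93, SE 0.13, edgeR adjusted p 0.000487) and passed under all 15 alternatives, with log2 values from 0.86 to 0.99 and adjusted p from 2.46e-10 to 0.0253. Cry1 was also higher in each KO22 library (log2 fold change 0.76, SE 0.27, edgeR adjusted p 0.047). Per3 (log2 fold change -1.34, SE 0.30, edgeR adjusted p 0.00632) and Dbp (log2 fold change -1.66, SE 0.42, edgeR adjusted p 0.0113) were lower in each KO22 library than in each KO26 library and passed both limits. Nr1d1 passed both limits as well (log2 fold change -1.38, SE 0.45, edgeR adjusted p 0.0358), although KO22 replicate 1 lay narrowly above KO26 replicate 1.

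Apart from Clock, these differences between clones depend on KO26 replicate 2 and on which libraries are fitted. When the WT libraries were left out, Per3 (-1.38), Cry1 (0.78), Nr1d1 (-1.51) and Dbp (-1.71) did not pass, with adjusted p from 0.0744 to 0.152, and Cry1 did not pass without a batch term (0.64). Without KO26 replicate 2, the log2 values were -0.70 for Per3, 0.30 for Cry1, -0.56 for Nr1d1 and -0.68 for Dbp. None of these 4 then passed, and the count past both limits was 0. Dbp also missed without KO22 replicate 2 (-1.41). Nr1d1 missed without KO22 replicate 2 (-1.03), KO22 replicate 3 (-1.08), WT replicate 2 (-1.38), WT replicate 3 (-1.39) or WT replicate 4 (-1.39), and was -2.31 without KO22 replicate 1. Cry1 missed without KO22 replicate 2 (0.68), KO22 replicate 3 (0.79), WT replicate 2 (0.77), WT replicate 3 (0.79) or WT replicate 4 (0.76), and was 1.28 and past both limits without KO26 replicate 1. Without KO22 replicate 1, Per1 (-0.72), Per2 (-1.11), Cry2 (-0.72), Nr1d2 (-0.49) and Tef (-1.42) also passed as lower in KO22. Per2 (-1.13) and Tef (-1.27) passed as lower without KO26 replicate 1 too.

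**Figure D3:**
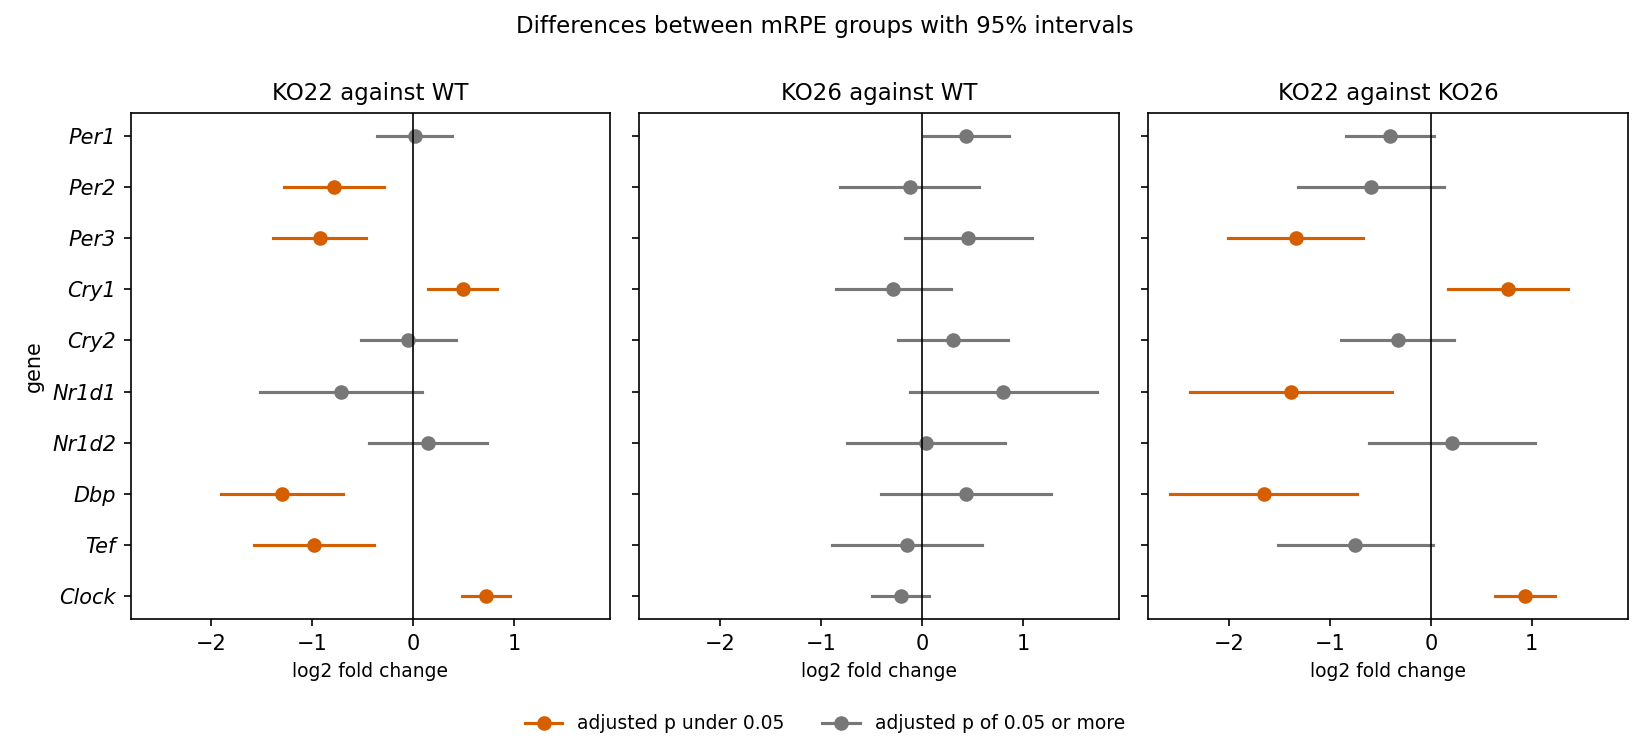
Each panel gives log2 fold changes of 1 comparison between mRPE groups on the horizontal axis, with a point per gene, a line for its 95% interval and color for an adjusted p under 0.05. Clock lies at 0.72 for KO22 against WT, -0.21 for KO26 against WT and 0.93 for KO22 against KO26.

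Ratios within a library do not depend on the scaling of its total. Per kilobase, the level of Nr1d1 over that of Bmal1, the gene its protein represses, was 2.02, 3.15, 4.50 and 4.28 in WT replicates 1 to 4, 3.16, 1.24 and 1.45 in KO22 and 3.27 and 9.16 in KO26. KO22 replicates 2 and 3 had the lowest ratios of the 9 libraries and KO26 replicate 2 the highest. Per2 over Cry1 was 1.38, 2.47, 1.92 and 2.91 in WT, 1.03, 0.832 and 0.695 in KO22 and 0.889 and 4.80 in KO26. Every KO22 library was below every WT library in that ratio, and the KO26 libraries lay on either side of the WT range.

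Nr1d1 shares part of its exons with Thra, a gene for a thyroid hormone receptor on the opposite strand. Thra covers 1694 of the 3242 exon bases of Nr1d1, or 52.3%. Thra was at 27.9, 36.1, 35.7 and 40.1 CPM in WT, 23.1, 18.1 and 16.6 CPM in KO22 and 39.9 and 54.5 CPM in KO26. All KO22 libraries were below every WT library, and KO26 replicate 2 was the highest. Thra fell in KO22 against WT (log2 fold change -0.86, SE 0.17, edgeR adjusted p 0.00259) and its interaction was negative too (log2 fold change -0.83, SE 0.20, edgeR adjusted p 0.00344). The libraries were stranded, but the strand used for counting is not given in the sources used here, so whether the counts keep reads of Nr1d1 and of Thra over the shared bases apart is not known. Opposite-strand genes cover smaller shares of Dbp (Sphk2, 15.5%), Clock (Tmem165, 11.9%) and Tef (Gm62928, 11.1%).

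Other genes of the clock were taken from lists by role. Npas2, for a protein that can stand in for CLOCK, was at 2.27, 4.25, 3.34 and 4.45 CPM in WT and 0.778, 0.820 and 0.621 CPM in KO22, without overlap (log2 fold change -2.20, edgeR adjusted p 0.000306). Rora, for the receptor that activates Bmal1, was at 75.6, 117, 117 and 108 CPM in WT and 53.7, 38.7 and 39.5 CPM in KO22, with all KO22 libraries lower (log2 fold change -1.23, edgeR adjusted p 0.000582). Against KO26, Bmal2 was higher and Npas2 and Rora lower in KO22. In KO26 against WT none of these 3 passed by edgeR, and Npas2 had a log2 fold change of -0.88 (adjusted p 0.176). In the interaction Rora was lower (log2 value -1.06, edgeR adjusted p 9.08e-05).

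Among 5 further repressors and bZIP factors, 3 rose and 0 fell in KO22 against WT, beside 26.9% and 26.1% of all genes, the 0 also at an unadjusted edgeR p and by DESeq2, with a median of 0.81. Hlf, the third PAR-bZIP gene beside Dbp and Tef, was at 9.58, 3.77, 6.28 and 5.02 CPM in WT and 91.3, 37.7 and 32.0 CPM in KO22. It moved opposite to Dbp and Tef, with all KO22 libraries above all WT libraries (log2 fold change 2.96, edgeR adjusted p 2.75e-06). Nfil3, for the repressor that competes at D-boxes, was at 27.4, 39.9, 39.2 and 40.6 CPM in WT and 86.7, 55.5 and 53.5 CPM in KO22 (log2 fold change 0.81, edgeR adjusted p 0.00933). Its KO22 libraries were all higher, with replicate 1 far above the others. Ciart also rose, with overlapping groups (log2 fold change 1.14, edgeR adjusted p 0.0334). The interaction was negative for all 5 and passed for 3, namely Nfil3 (log2 value -1.22, edgeR adjusted p 1.61e-05), Bhlhe40 (-1.78, edgeR adjusted p 0.000135) and Ciart (-1.80, edgeR adjusted p 0.00336), with a median of -1.22 and 0 higher, also by DESeq2 and at an unadjusted p, beside 9.34% lower and 17.2% higher of all genes. In KO26 against WT 1 of 5 passed, Bhlhe41, for a repressor of E-box genes, which was higher (log2 fold change 1.30, edgeR adjusted p 0.0196), beside 2.36% higher of all genes.

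Among clock kinases, ubiquitin ligases and related genes, the largest log2 fold changes in KO22 against WT that passed were those of Btrc (-1.35), for a ligase subunit that marks PER for degradation, and Timeless (1.33). The kinase genes Csnk1d (0.35) and Csnk1e (0.70) and the ligase gene Fbxw11 (0.32) rose by smaller amounts in log2 terms. Of 8 clock-controlled genes outside the loop, 3 rose (Wee1 0.61, Noct 1.60 and Por 1.00) and 2 fell (Usp2 -1.28 and Tsc22d3 -2.62), with a median of -0.041, beside 26.9% higher and 26.1% lower of all genes. None of the genes named in this paragraph passed an edgeR adjusted p of 0.05 in KO26 against WT, where 2 of the 8 clock-controlled genes had an unadjusted p under 0.05, beside 4163 of all 20737 genes. DESeq2 called 2 of the named genes higher there, Timeless (adjusted p 0.0472) and Wee1 (0.0223). In the interaction Timeless was higher (2.29), and the clock-controlled genes gave 2 higher and 3 lower, beside 17.2% and 9.34% of all genes, but 0 higher and 2 lower by DESeq2.

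Glucocorticoids induce Per1 and set cultured clocks, and the medium held hydrocortisone. Of 6 genes for the glucocorticoid receptor and its targets, 0 rose, also at an unadjusted edgeR p and by DESeq2, and 4 fell in KO22 against WT, with a median log2 fold change of -0.92, while 26.9% of all genes rose and 26.1% fell. Zbtb16 fell most (log2 fold change -2.11, edgeR adjusted p 2.96e-06), before Klf9 (log2 fold change -1.33, edgeR adjusted p 7.84e-05), Sgk1 (log2 fold change -1.11, edgeR adjusted p 0.000146) and Fkbp5 (log2 fold change -0.73, edgeR adjusted p 0.000388), each lower in 3 of 3 KO22 libraries than in any WT library. Against WT, KO26 gave 0 of 6 by edgeR and by DESeq2, with 1 lower at an unadjusted p, beside 1871 of all 20737 genes. The interaction gave 0 higher, also by DESeq2 and at an unadjusted p, and 1 lower, Klf9 (-0.69), beside 9.34% lower of all genes. What part these genes had in the clock values was not tested.

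For the RPE/choroid tissue the question is what Prom1 deletion in RPE cells does in the eye. Prom1 was at 48.7, 49.6 and 53.3 CPM in WT replicates 1 to 3 and 49.9, 48.1 and 35.5 CPM in the libraries labelled Prom1-KO. The groups overlapped, and Prom1 was not lower at an adjusted p under 0.05 (log2 fold change -0.18, SE 0.16, edgeR adjusted p 0.824). Photoreceptors express Prom1 as well, and their marker Gnat1 was at 17.3, 8.66 and 251 CPM in WT and 124, 35.3 and 4.61 CPM in the others. Its level varied widely within both groups, and what part photoreceptor RNA had in the Prom1 values was not tested. Total counts were 59625225, 52590233 and 51742746 in WT and 48154444, 57016531 and 61766179 in the libraries labelled Prom1-KO. Replicate 3 of the latter stands apart, with 84.2% of its counts from mitochondrial genes against 64.9% to 71.3% in the other 5 libraries.

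RPE markers were present in WT tissue, and most of them were lower in the libraries labelled Prom1-KO. The summed level of all 8 was 2387, 1496 and 2136 CPM in WT and 226, 325 and 239 CPM in the libraries labelled Prom1-KO, where Tyr or Ttr was the most abundant. Every one of the latter lay far below every WT library, and 3 of the 8 markers (Rpe65, Lrat and Rgr) fell past both limits by edgeR, beside 0.189% of all genes. Rlbp1, Ttr and Mitf were also lower in 3 of 3 libraries, and did not pass by edgeR (adjusted p 0.0709 to 0.0929) but passed by DESeq2, which called 6 of the 8 lower, beside 1.22% of all genes, while Best1 and Tyr overlapped between the groups. Tyr was at 95.8, 71.5 and 65.3 CPM in WT and 115, 91.9 and 81.5 CPM in the others. Rpe65 was at 279.9, 204 and 287 CPM in WT and 1.13, 5.98 and 4.48 CPM in the others. Of 6 endothelial markers 0 passed by edgeR, 4 (Cdh5, Kdr, Tek and Plvap) were lower at an unadjusted p under 0.05, beside 1075 of all 24926 genes, and DESeq2 called 1 lower, Plvap, beside 1.22% of all genes. What part these markers had in the clock values was not tested.

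None of the 10 clock genes passed in the tissue: 0 rose and 0 fell at an edgeR adjusted p under 0.05, beside 0% and 0.193% of the 24926 genes tested. Past both limits the counts were 0 and 0, beside 0% and 0.189%. DESeq2 also gave 0. At an unadjusted edgeR p under 0.05 there was 1, Nr1d1, which was lower, beside 1075 lower of all 24926 genes. So few genes passed at all that the 0 is near the background. The median log2 fold change was -0.063, beside 0.014 over all genes. Leaving out replicate 3 of the libraries labelled Prom1-KO, or the mitochondrial genes, likewise gave 0 and 0 past both limits.

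Nr1d1 was at 59.4, 64.6 and 74.1 CPM in WT and 51.0, 54.3 and 35.8 CPM in the libraries labelled Prom1-KO. The latter 3 were all below the 3 WT libraries, with replicate 3 lowest. The difference did not pass (log2 fold change -0.49, SE 0.19, edgeR adjusted p 0.547), and its log2 value was -0.34 without replicate 3. Thra, on the other strand of the same place, was at 31.8, 31.6 and 39.3 CPM in WT and 28.0, 28.7 and 18.6 CPM in the others. It too was below in 3 of 3 libraries without passing (log2 fold change -0.45, SE 0.20, edgeR adjusted p 0.616). Nr1d2 was at 39.2, 37.0 and 41.8 CPM and 44.6, 39.1 and 41.8 CPM, and the groups overlapped.

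Dbp was at 34.5, 26.6 and 33.1 CPM in WT and 27.5, 31.3 and 17.7 CPM in the libraries labelled Prom1-KO. Replicate 3 was the lowest and the other 2 fell inside the WT range (log2 fold change -0.30, edgeR adjusted p 0.792), and without replicate 3 the log2 fold change was -0.11. Per1 was at 20.3, 13.2 and 13.6 CPM and 12.7, 16.5 and 8.92 CPM, with the same replicate lowest. Its log2 fold change of -0.30 did not pass, and without that replicate the value was -0.11. The other 6 genes had log2 fold changes between -0.11 for Per2 and 0.098 for Tef, all with overlapping groups. Per3 (-0.0064) and Cry2 (-0.037) turned positive without replicate 3 of the libraries labelled Prom1-KO, at 0.084 and 0.11 in log2 terms. Leaving out WT replicate 3 turned Per3 (0.032), Cry1 (0.051) and Cry2 (0.048) positive. Cry2 did so without WT replicate 1 (0.0039), and Clock without WT replicate 2 (0.033) or without replicate 2 of the libraries labelled Prom1-KO (0.016). All of these values lie near 0. In the other clock lists and the glucocorticoid list, 0 genes passed in the tissue by edgeR or DESeq2, and 0 had an unadjusted edgeR p under 0.05.

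**Figure D4:**
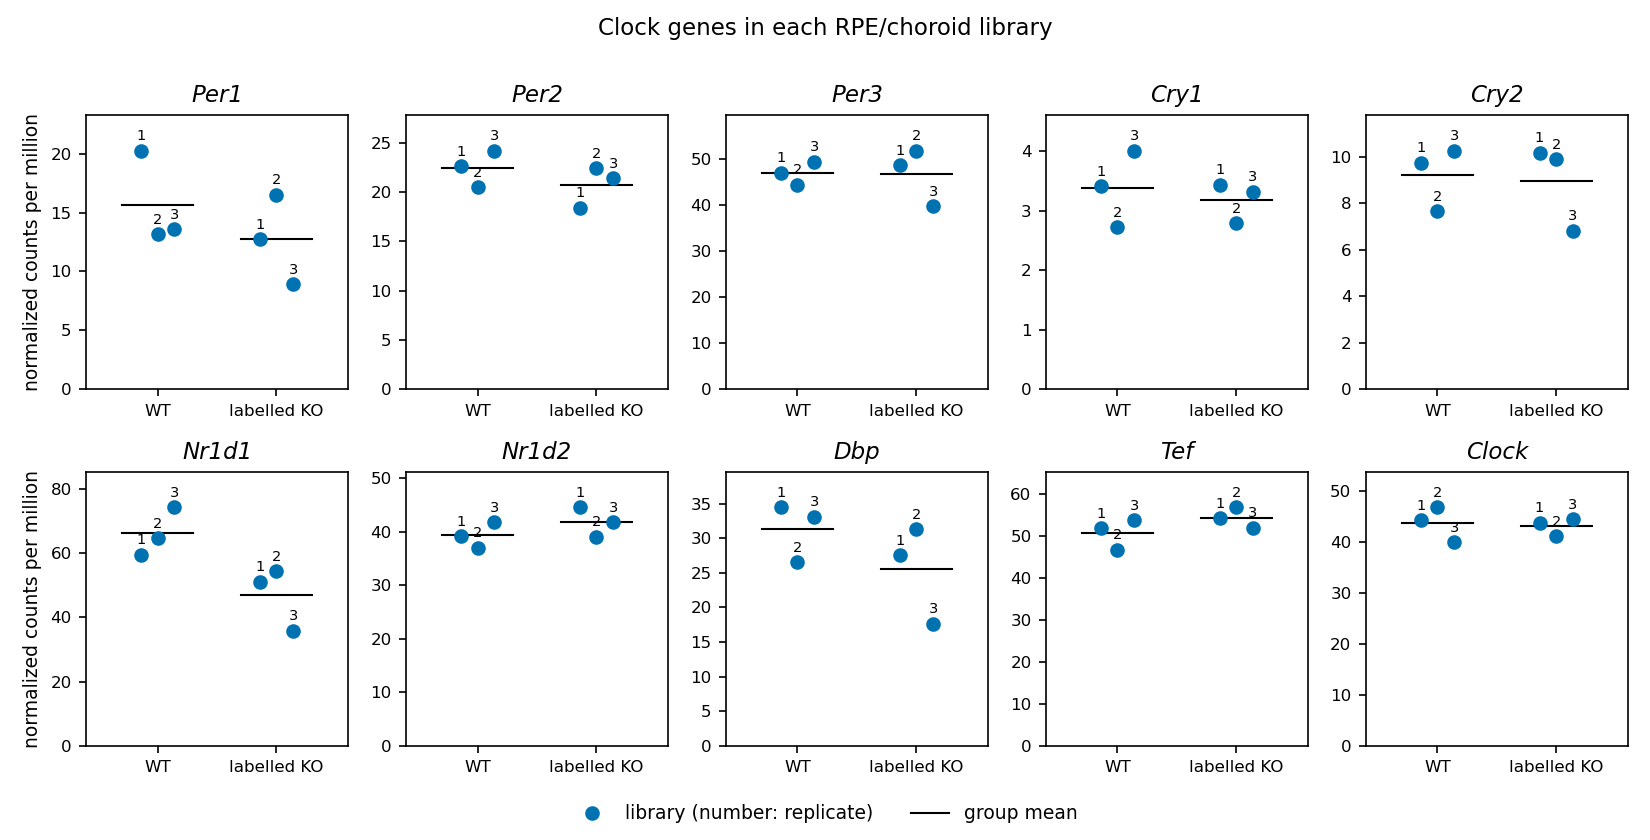
Each panel shows 1 gene, with CPM after TMM scaling on the vertical axis from 0, a numbered point per RPE/choroid library and a line at the group mean. For Nr1d1 the 3 libraries labelled KO lie between 35.8 and 54.3 CPM, below the WT libraries at 59.4 to 74.1 CPM, and replicate 3 is the lowest for Dbp and Per1 as well.

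Per kilobase, the order of levels in WT tissue was Nr1d1 (20.4 CPM per kilobase), Dbp (9.04), Tef (6.16), Per3 (4.49), Nr1d2 (4.35), Per2 (3.42), Clock (2.53), Per1 (2.05), Cry2 (1.08) and Cry1 (0.679), with Bmal1 lowest at 0.334. Only Per3 and Nr1d2, and Clock and Per1, were neighbours whose ranges over the 3 libraries overlapped. Nr1d1 over Bmal1 was 86.8, 71.0 and 44.8 in WT and 50.7, 86.0 and 38.2 in the libraries labelled Prom1-KO, and the groups overlapped. The orders differ between the tables, with Clock first in WT mRPE cells and Dbp near the bottom there. The tables come from separate libraries scaled separately, so no test was made across them.

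The windows of 250 bases before the start of each gene's Ensembl canonical transcript were read for motifs on both strands. The E-box CACGTG was in 3 of the 10 windows (Cry1, Per1 and Tef), beside 6.26% of all 21593 protein-coding windows of that length. Its variant, the E'-box CACGTT, was in 3 (Cry1, Cry2 and Nr1d1), beside 4.17%. The D-box TTATGTAA was in 2 (Per2 and Per3), beside 0.843%. The cAMP response element TGACGTCA was in 0, beside 1.7%, and the nuclear receptor half-site AGGTCA, which forms part of ROR elements, was in 2 (Dbp and Nr1d2), beside 13.2%. A match is a description, not a site or a cause, and a window without one says only that these letters are not in it.

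The windows that hold an E-box, E'-box or D-box are shown because these are the elements that CLOCK with BMAL1 and the PAR-bZIP factors bind, except that of Cry1, which lies within exons of other Cry1 transcripts. Capitals mark an E-box in Per1 and Tef, an E'-box in Cry2 and Nr1d1, where it lies on the other strand and reads AACGTG on the strand shown, and a D-box in Per2 and Per3. Coordinates are of GRCm39, and each sequence runs 5′ to 3′ on the strand of its gene. They are chr11:68989018-68989267 (plus strand) for Per1, chr1:91387070-91387296 (minus strand) for Per2, chr4:151129141-151129390 (minus strand) for Per3, chr2:92264475-92264724 (minus strand) for Cry2, chr11:98666189-98666409 (minus strand) for Nr1d1 and chr15:81695365-81695614 (plus strand) for Tef. From Per2 and Nr1d1, 23 and 29 bases next to the start were left out because another transcript of the gene has an exon there. The Per1 and Tef windows lie inside longer transcripts of those genes.
Per1: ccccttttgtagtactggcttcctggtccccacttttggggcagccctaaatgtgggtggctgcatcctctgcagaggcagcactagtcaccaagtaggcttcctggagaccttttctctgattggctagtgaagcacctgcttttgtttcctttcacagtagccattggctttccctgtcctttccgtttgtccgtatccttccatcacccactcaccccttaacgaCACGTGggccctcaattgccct
Per2: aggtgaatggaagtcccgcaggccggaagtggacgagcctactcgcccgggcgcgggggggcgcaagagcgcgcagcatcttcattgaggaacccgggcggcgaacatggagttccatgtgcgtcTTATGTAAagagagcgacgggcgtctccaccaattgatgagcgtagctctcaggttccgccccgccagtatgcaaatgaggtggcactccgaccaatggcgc
Per3: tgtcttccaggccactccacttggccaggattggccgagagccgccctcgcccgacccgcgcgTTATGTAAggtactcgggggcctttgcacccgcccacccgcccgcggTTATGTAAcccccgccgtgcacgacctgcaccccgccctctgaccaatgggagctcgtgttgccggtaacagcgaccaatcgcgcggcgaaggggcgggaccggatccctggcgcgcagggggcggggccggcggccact
Cry2: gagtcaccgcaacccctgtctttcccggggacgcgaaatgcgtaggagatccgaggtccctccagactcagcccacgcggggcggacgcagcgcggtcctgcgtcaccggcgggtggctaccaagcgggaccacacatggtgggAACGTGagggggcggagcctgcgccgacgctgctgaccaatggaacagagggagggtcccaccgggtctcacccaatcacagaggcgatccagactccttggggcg
Nr1d1: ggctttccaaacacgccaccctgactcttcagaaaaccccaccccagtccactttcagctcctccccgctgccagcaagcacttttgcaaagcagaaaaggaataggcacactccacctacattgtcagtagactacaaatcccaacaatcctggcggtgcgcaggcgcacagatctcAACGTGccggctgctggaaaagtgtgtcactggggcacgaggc
Tef: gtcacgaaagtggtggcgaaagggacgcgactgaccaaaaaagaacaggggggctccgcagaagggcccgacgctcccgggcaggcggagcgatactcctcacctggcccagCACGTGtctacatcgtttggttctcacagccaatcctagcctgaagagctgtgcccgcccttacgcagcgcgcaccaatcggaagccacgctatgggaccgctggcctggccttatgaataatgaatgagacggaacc
Per3 holds its 2 D-boxes within the first part of the window, and in Per1 the E-box lies near the end next to the start. No binding was measured in these libraries.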

How the data were processed

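RNA was measured in 9 mRPE and 6 RPE/choroid libraries. The raw count tables deposited by the authors were used, and the 15 per-sample columns of the authors' normalized tables were not. Per the submitters' notes, reads were trimmed with Trim Galore 0.6.7 and aligned with STAR to mm39. In R 4.3.3, each comparison was fitted over all genes that reached 5 counts in 3 or more libraries, by edgeR 4.0.16 (TMM scaling, quasi-likelihood test, Benjamini-Hochberg adjustment), with library batch as a term in mRPE. KO22 was compared with WT in 7 libraries, and KO26 comparisons used all 9. Gene models came from the GENCODE M39 annotation of GRCm39. The clock genes, the related lists and the RPE and proliferation markers were chosen with earlier results of these data known, markers of fibroblasts, smooth muscle, endothelium and photoreceptors were named after their values were seen, and some genes of the lists are not reported here. Alternatives were DESeq2 1.42.0, its size factors, 2 other filters, no batch term, other sets of libraries and each library left out. Leaving out mitochondrial genes in the tissue was chosen after seeing the data. The steps were tested on simulated data.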

Additional observations from a re-analysis of the deposited data

Results flagged for a closer look

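In WT mRPE cells, Per1 in replicate 4 was at 38.0 CPM, far from the other 3 libraries at 34.1 to 34.4 CPM relative to their spread (gap over range 0.946). It was the only 1 of 12 genes tested this way that passed the limit for 4 samples, and chance marks about 1 in 20 such groups.

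Between the clones, a direct test differed for 5 clock genes, KO22 against KO26, 2 higher and 3 lower, beside 16.3% and 18.1% of all genes. The log2 values were -1.34 for Per3, 0.76 for Cry1, -1.38 for Nr1d1, -1.66 for Dbp and 0.93 for Clock. Except for Clock, none of them passed without KO26 replicate 2 or without the WT libraries.

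Between library batches, the KO22 difference itself differed by the interaction test for 8 clock genes, all lower, beside 9.34% of all genes. The log2 values, batch 9262 against 8995, were -0.82 for Per1, -1.09 for Per2, -0.82 for Per3, -0.98 for Cry2, -2.04 for Nr1d1, -1.51 for Nr1d2, -1.16 for Dbp and -1.49 for Tef. Batch 8995 holds 1 KO22 and 1 WT library, so a difference between batches and a difference between those libraries and the rest cannot be told apart, and the spread behind this test comes from batch 9262 alone.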

How the results depend on the processing

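The 10 clock genes and Bmal1 gave 66 fold changes, with 847 values under an alternative. Of these, 745 kept their direction and their side of the adjusted p of 0.05, 36 kept their direction and no longer passed, 23 kept it and newly passed, and 43 changed direction. Every change of direction came from leaving out 1 library or batch 8995, and none from the scaling, the filters or DESeq2. The causes were not tested, other than that fewer libraries were fitted.

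With no limit on the fold change, the counts of all genes higher and lower were 5506 and 5331 for KO22 against WT, 490 and 235 for KO26 against WT, 3388 and 3744 for KO22 against KO26, 936 and 893 for the batch and 3521 and 1911 for the interaction. Clock genes then numbered 2 higher and 4 lower for KO22 against WT, 2 higher and 3 lower for KO22 against KO26 and 8 lower for the interaction.

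By DESeq2, genes lower numbered 269 for KO26 against WT, genes higher and lower 765 and 681 for the interaction and 84 and 189 in the tissue. Without a batch term, KO26 against WT gave 123 higher and 71 lower. Fitting only the libraries of the 2 groups gave 408 higher and 410 lower for KO26 against WT, and 988 higher, 1348 lower and 0 clock genes lower for KO22 against KO26. In the tissue, edgeR's filterByExpr gave 1 gene higher, and so did leaving out mitochondrial genes, with 1 higher. In batch 9262 alone, KO22 against WT gave 3 clock genes lower past both limits, while 31.6% of all genes were lower at the adjusted p. Per1 (-0.22) and Nr1d2 (-0.30) changed direction there. The adjusted p was 0.0649 for Per1 (range over its alternatives 0.0439 to 0.981) and 0.0176 for Nr1d2 (0.0109 to 0.71).

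Leaving out 1 library at a time gave 0 to 3 clock genes lower past both limits in KO22 against WT, beside 2490 to 3079 of all genes. The log2 ranges were -0.24 to 0.10 for Per1, -0.35 to 0.065 for Cry2 and -0.31 to 0.30 for Nr1d2. In KO26 against WT, genes higher ran from 68 to 471 and genes lower from 32 to 407. The log2 ranges were -0.90 to 0.35 for Per2, -0.23 to 0.90 for Per3, -0.79 to 0.19 for Cry1, -0.15 to 1.32 for Nr1d1, -0.80 to 0.53 for Nr1d2, -0.61 to 1.06 for Dbp, -0.89 to 0.29 for Tef and -0.12 to 0.058 for Bmal1.

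In KO22 against KO26, leaving out 1 library gave 0 to 1 clock genes higher and 0 to 4 lower past both limits. Of all genes, 1272 to 1832 were then higher and 1992 to 2397 lower. The log2 ranges were -1.13 to 0.11 for Per2 and -0.49 to 0.95 for Nr1d2. For the batch, genes higher ran from 195 to 1103 and genes lower from 62 to 529. Its log2 ranges were -0.46 to 0.015 for Per1, -0.021 to 0.55 for Cry2, -0.24 to 0.99 for Nr1d1, -0.48 to 0.52 for Nr1d2, -0.26 to 0.69 for Dbp and -0.47 to 0.45 for Tef.

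The interaction gave 3 to 5 clock genes lower past both limits, beside 854 to 1312 of all genes, and -0.093 to 0.23 for Cry1. It has no value without WT replicate 1 or KO22 replicate 1. Where leaving out a library left KO26 or a group within a batch with 1 library, that library was assumed to vary like the others. In the tissue, genes higher ran from 0 to 5 and genes lower from 9 to 37 as 1 library was left out. The log2 ranges were -0.087 to 0.084 for Per3, -0.22 to 0.051 for Cry1, -0.16 to 0.11 for Cry2, -0.078 to 0.033 for Clock and -0.58 to 0.11 for Bmal1.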
